A study of Rattus norvegicus with 6 samples.

Results

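The 8 genes Fos, Fosb, Fosl1, Fosl2, Jun, Junb, Jund and Atf3 encode the Fos and Jun subunits of the transcription factor AP-1 and its relative ATF3. They were taken by gene name from a table of 25689 genes, and all 8 were among the 14919 genes that passed the filter on low counts. They were selected on measured values, because Fos and Jund had moved against Fosl1 between the same 2 groups. Levels and fold changes of these 8 genes are therefore given as a description, and no test is read from them.

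RNA was sequenced from neurons isolated from dorsal root ganglia (DRGs), which hold the cell bodies of sensory neurons, at lumbar levels L1 and L2 of spontaneously hypertensive rats (SHRs), an inbred model of high blood pressure. All animals were wild type and labelled as 6 to 8 weeks old, although the study's text gives a higher age at purchase. In 3 samples the fat around the kidneys had been removed surgically 4 weeks earlier (perirenal adipose tissue ablation, PRATA), and 3 samples came from sham-operated SHRs. The comparison asks how L1 and L2 DRG neurons differ 4 weeks after removal of the fat around the kidneys. No selection of the neurons whose endings reach that fat was described. Before lysis the ganglia of both groups were digested with collagenase and trypsin, plated for 5 h and rinsed off the more adherent glia, so the RNA is that of dissociated cells. Whether a sample was 1 rat or several was not given in the sources used here, so the spread between samples may be partly technical.

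AP-1 is a dimer. Jun proteins pair with each other or with Fos proteins, whereas Fos proteins need a Jun partner, and the dimer binds short DNA elements in many promoters and enhancers. Fos, Fosb, Jun and Junb are immediate early genes, switched on within minutes of neuronal activity or growth factor stimulation, while Fosl1 is itself often a target of AP-1 and of MAP kinase signalling. ATF3 also pairs with Jun proteins, and in sensory neurons it is the textbook marker of axon injury.

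Upstream sequence is shown for Fosl1 and Jund, the lower member and a higher member of the contrast for which RefSeq gave an entry. RefSeq entries of assembly GRCr8 matched 5 of the 8 genes, namely Fosb, Fosl1, Fosl2, Junb and Jund, and the 250 bases before each annotated start were searched on both strands for 4 motifs. TGACTCA is the AP-1 site and was present in 4.05% of all 33469 windows of the same length. TGACGTCA is the site of CREB and ATF dimers and was present in 1.59%. TGCGTCA, a variant of the AP-1 site added after the windows had been seen, was present in 1.66%, and the serum response element was present in 1.5%. The Fosl1 window, chr1:212183635-212183884 on the plus strand, and the Jund window, chr16:18769772-18770021 on the minus strand, are printed 5′ to 3′ with motif matches in capitals.
Fosl1: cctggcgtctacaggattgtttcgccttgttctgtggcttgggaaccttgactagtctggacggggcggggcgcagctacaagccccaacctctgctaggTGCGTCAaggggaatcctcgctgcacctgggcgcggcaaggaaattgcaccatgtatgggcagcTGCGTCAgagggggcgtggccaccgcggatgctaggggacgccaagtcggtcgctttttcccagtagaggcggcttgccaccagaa
Jund: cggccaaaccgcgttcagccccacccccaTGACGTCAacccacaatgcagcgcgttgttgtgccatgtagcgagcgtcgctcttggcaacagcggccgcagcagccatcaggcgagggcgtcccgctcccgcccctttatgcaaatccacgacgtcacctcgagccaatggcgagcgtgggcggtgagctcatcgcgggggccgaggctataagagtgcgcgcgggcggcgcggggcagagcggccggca
TGCGTCA occurred at 150 to 144 and at 86 to 80 bases before the start of Fosl1. TGACGTCA, which reads the same on both strands, occurred at 221 to 214 bases before the start of Jund. No match overlapped another, and no match to the 4 motifs was found in the windows of Fosb, Fosl2 or Junb. These are matches of letters only, since no binding was measured.

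Total counts lay between 5892967 in sham sample 2 and 15226952 in sham sample 1, and 3 counts corresponded to 0.197 to 0.509 normalised read counts (counts per 1000000, CPM). The smallest count of any of the 8 genes was 60, for Fosl2 in sham sample 2, so counting error was small beside the spread between samples. The samples differed in 1 further respect. Rn7sl1, a gene of the 7SL RNA of the signal recognition particle, took 5.40% of the counts in PRATA sample 3 and 5.63% in sham sample 1, but 1.25% to 1.52% in the other 4 samples. This split crosses the groups, and values within the larger set of 4 samples are given where they bear on a result.

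Levels below are CPM scaled by edgeR's TMM method, which compares samples for 1 gene but not genes with each other, because transcript lengths were not used. Of the Fos family, Fos (ENSRNOG00000008015), the prototype activity-induced subunit, was at 379, 474 and 297 CPM in PRATA samples 1, 2 and 3 and at 217, 96.3 and 77.5 CPM in sham samples 1, 2 and 3. The lowest PRATA value thus exceeded the highest sham value. The means were 383 ± 88.4 CPM after PRATA and 130.4 ± 75.8 CPM after sham operation (SD, n = 3 each), a fitted 2.94-fold higher level with a log2 fold change of 1.56 ± 0.40 (SE).

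Fosb (ENSRNOG00000046667) encodes a subunit whose stable splice form accumulates in neurons under repeated stimulation. Its level was 524, 601 and 178 CPM after PRATA, against 209, 62.1 and 32.4 CPM after sham operation. The groups overlapped, as PRATA sample 3 lay below sham sample 1. The log2 fold change was 2.10 ± 0.71 (SE), the largest of the 8 genes, and the highest sample was 18.5-fold above the lowest.

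Fosl1 (ENSRNOG00000020552), which encodes FRA-1, a subunit without the transactivation domain of Fos, went the other way. Its level was 195, 192 and 140.4 CPM after PRATA, against 522, 220.1 and 384 CPM after sham operation. The highest PRATA value was below the lowest sham value, with a narrow gap between PRATA sample 1 and sham sample 2. The means were 176 ± 30.6 CPM and 375 ± 151 CPM (SD, n = 3 each), a fitted 2.14-fold lower level after PRATA with a log2 fold change of -1.10 ± 0.32 (SE). Without sham sample 1 it was -0.80, and within the 4 samples of the larger 7SL set it was -0.66 ± 0.32 (SE).

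Fosl2 (ENSRNOG00000052357), which encodes the related FRA-2, was at 16.4, 15.1 and 6.72 CPM after PRATA and 15.4, 9.37 and 11.4 CPM after sham operation. The groups overlapped throughout, and the log2 fold change was 0.07 ± 0.36 (SE).

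**Figure D1:**
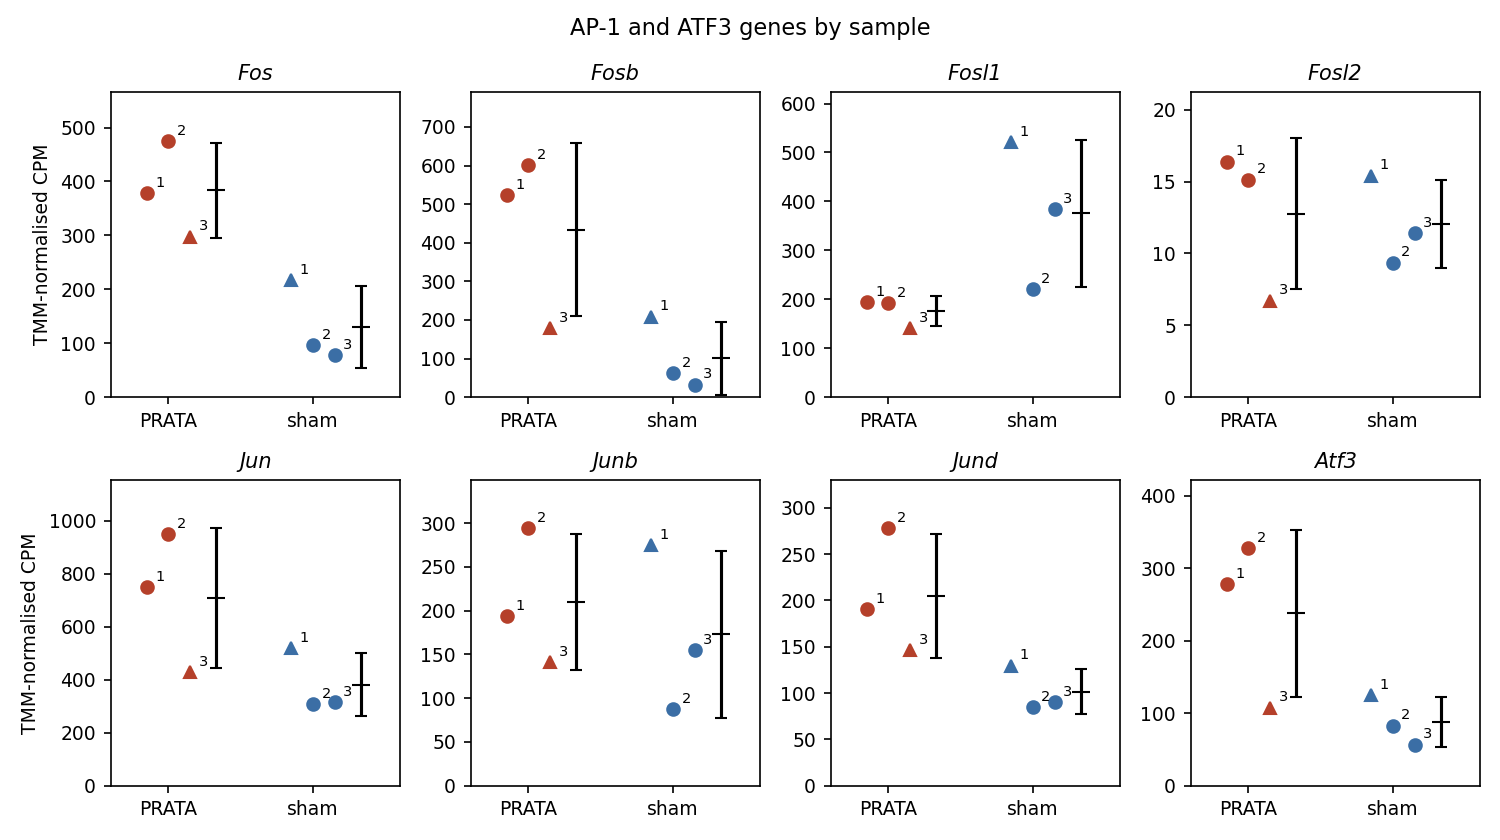
Level of each of the 8 genes in each sample, as TMM-normalised CPM on linear axes that start at 0. Points are samples, numbered by replicate, with PRATA in red and sham in blue; triangles are the samples with a high Rn7sl1 share, and bars to the right are group means ± SD (n = 3). Fos and Jund separate the groups upwards and Fosl1 separates them downwards, and the other 5 genes overlap.

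Of the Jun family, Jun (ENSRNOG00000026293), the principal partner of Fos proteins, was at 749, 950.4 and 428 CPM in PRATA samples 1, 2 and 3 and at 520.2, 309 and 315 CPM in sham samples 1, 2 and 3. PRATA sample 3 fell within the range of the sham samples, and the log2 fold change was 0.89 ± 0.34 (SE). Junb (ENSRNOG00000042838), a Jun protein that can restrain Jun, was at 194, 294 and 141 CPM after PRATA and 275, 87.7 and 155 CPM after sham operation. Its groups overlapped, and the log2 fold change was 0.28 ± 0.42 (SE).

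Jund (ENSRNOG00000019568), the Jun protein with the steadiest expression in most cells, was at 191, 278 and 147 CPM after PRATA, against 129.7, 85.1 and 90.1 CPM after sham operation. All PRATA samples lay above all sham samples. The means were 205 ± 67.1 CPM and 102 ± 24.4 CPM (SD, n = 3 each), a fitted 2.02-fold higher level with a log2 fold change of 1.01 ± 0.28 (SE).

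Atf3 (ENSRNOG00000003745) was at 278, 327 and 108 CPM after PRATA, against 125, 82.7 and 56.5 CPM after sham operation. PRATA samples 1 and 2 stood above the rest, while PRATA sample 3 lay below sham sample 1. The log2 fold change was 1.43 ± 0.44 (SE), a fitted 2.70-fold higher level.

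The 8 genes shared the lowest PRATA sample and the highest sham sample, while the rest of the order differed between genes. All 8 were lowest in PRATA sample 3 among the PRATA samples and highest in sham sample 1 among the sham samples, the samples with the high Rn7sl1 share. PRATA sample 2 held the highest level of Fos, Fosb, Jun, Junb, Jund and Atf3. Between PRATA sample 3 and sham sample 1, a comparison of 1 sample with 1 that allows no test, the ratio was 1.37 for Fos and 1.13 for Jund, but 0.853 for Fosb, 0.861 for Atf3, 0.823 for Jun and 0.269 for Fosl1. In the other 4 samples the log2 fold change was 2.29 for Fos, 3.58 for Fosb, 2.12 for Atf3, 1.44 for Jun, 1.41 for Jund and 0.99 for Junb. Of the 8 genes, Fos, Jund and Fosl1 had the same direction in both sets of samples and separated the groups in all 6. Their opposite directions in these samples were what selected the 8 genes, so this is a description and no support.

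**Figure D2:**
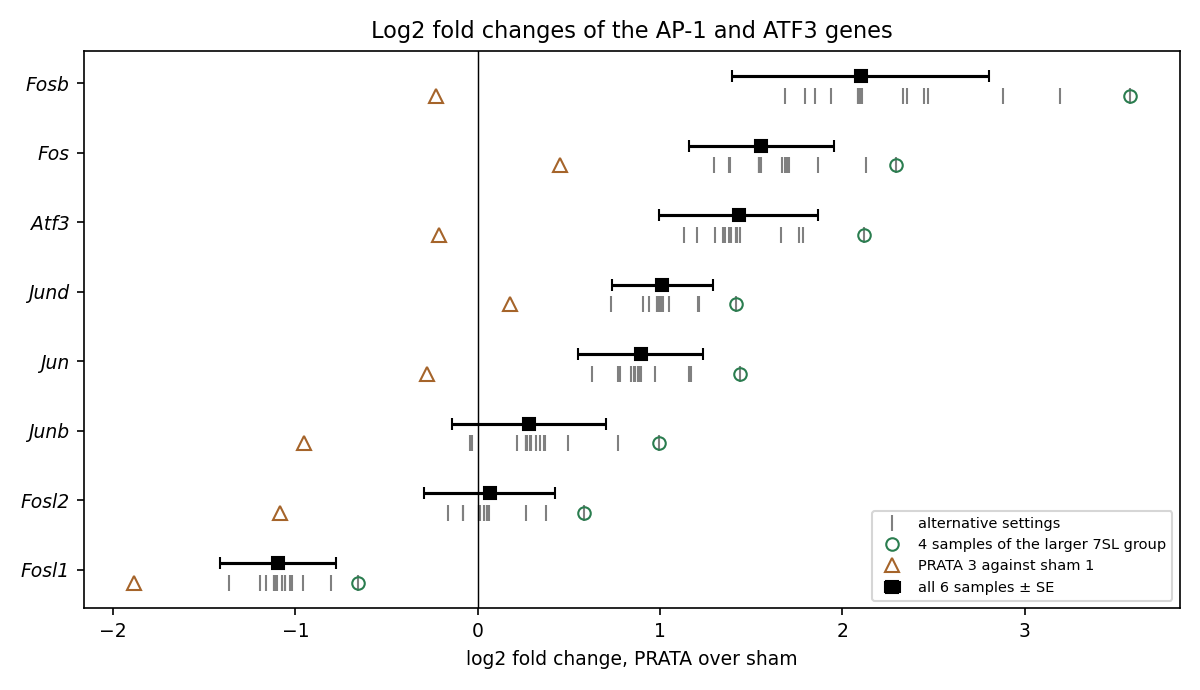
Log2 fold change (PRATA over sham) of each of the 8 genes on the horizontal axis, with black squares and bars for the fit on all 6 samples ± SE. Grey ticks are the same value under the other normalisations, filters, tools and sample sets, green circles the 4 samples of the larger 7SL set, and brown triangles the log2 ratio of PRATA sample 3 to sham sample 1. Fos and Jund stay above 0 and Fosl1 below 0 in every mark, whereas the triangles of Fosb, Atf3 and Jun lie below 0. The genes were selected on this contrast.

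In edgeR's quasi-likelihood test over all 14919 genes, 0 genes passed an adjusted p of 0.05 (0% of genes tested), and the smallest adjusted p was 0.156. At an unadjusted p under 0.05, 1222 genes were higher after PRATA (8.19%) and 1512 were lower (10.1%). Of the 8 genes, Fos, Fosb, Jun, Jund and Atf3 were among the first set and Fosl1 among the second. Groups that did not overlap were found for 1728 genes in the higher direction (11.6%) and 1674 in the lower (11.2%), and Fos and Jund were among the former and Fosl1 among the latter. Since the 8 genes were chosen on this contrast, nothing is read from those counts. With an adjusted p under 0.05 there were 234 higher and 510 lower genes by DESeq2 and 0 by limma-trend, and edgeR without sham sample 2 gave 162 and 559. The median log2 fold change over all genes tested was 0.02, and over the 8 genes it was 0.95.

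The make-up of the Fos family within a sample was also described, as the share of the counts of Fos, Fosb, Fosl1 and Fosl2 taken by each. These shares depend on transcript length and are compared between samples only, and their 95% Wilson intervals cover counting error alone. Fosl1 took 17.5% (95% interval 16.7 to 18.3%), 15.0% (14.4 to 15.5%) and 22.6% (21.6 to 23.5%) of the family counts in PRATA samples 1, 2 and 3. In sham samples 1, 2 and 3 it took 54.2% (53.3 to 55.0%), 56.7% (54.8 to 58.7%) and 76.0% (74.8 to 77.1%). The shares of Fosl1 thus lay far apart in the groups, at 18.3 ± 3.86% and 62.3 ± 11.9% (SD, n = 3 each).

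Fos took 34.0 to 47.8% of the family counts after PRATA and 15.3 to 24.8% after sham operation, and Fosb took 28.6 to 47.0% and 6.41 to 21.7%. The Jun family was more alike between the groups. Jun took 62.8 ± 3.18% after PRATA and 58.9 ± 4.55% after sham operation, Junb took 18.7 ± 1.44% and 25.2 ± 6.15%, and Jund took 18.5 ± 1.83% and 15.9 ± 1.82% (SD, n = 3 each), with ranges that overlapped for each of the 3 genes.

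Ratios of counts within a sample do not depend on the scaling between samples. The log2 ratio of Fos to Fosl1 was 0.96, 1.30 and 1.08 in PRATA samples 1, 2 and 3 and -1.26, -1.19 and -2.31 in sham samples 1, 2 and 3. The PRATA values lay above all sham values, a difference of means of 2.70. The log2 ratio of Jund to Fosl1 was -0.03, 0.53 and 0.06 after PRATA and -2.01, -1.37 and -2.09 after sham operation. The PRATA values again lay above all sham values, with a difference of means of 2.01. The ratio of Fosb to Fosl1 also separated the groups, with a difference of 3.38. So did the log2 ratio of Fos to Jun, at -0.84 ± 0.27 after PRATA and -1.65 ± 0.38 after sham operation (SD, n = 3 each), a difference of 0.82. The ratios of Fosb to Fos, Jun to Junb, Jund to Junb, Jund to Jun and Atf3 to Jun overlapped. Exact permutation of 3 against 3 samples cannot give a two-sided p below 0.1, and no test was run on these ratios, which use the contrast that selected the genes.

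**Figure D3:**
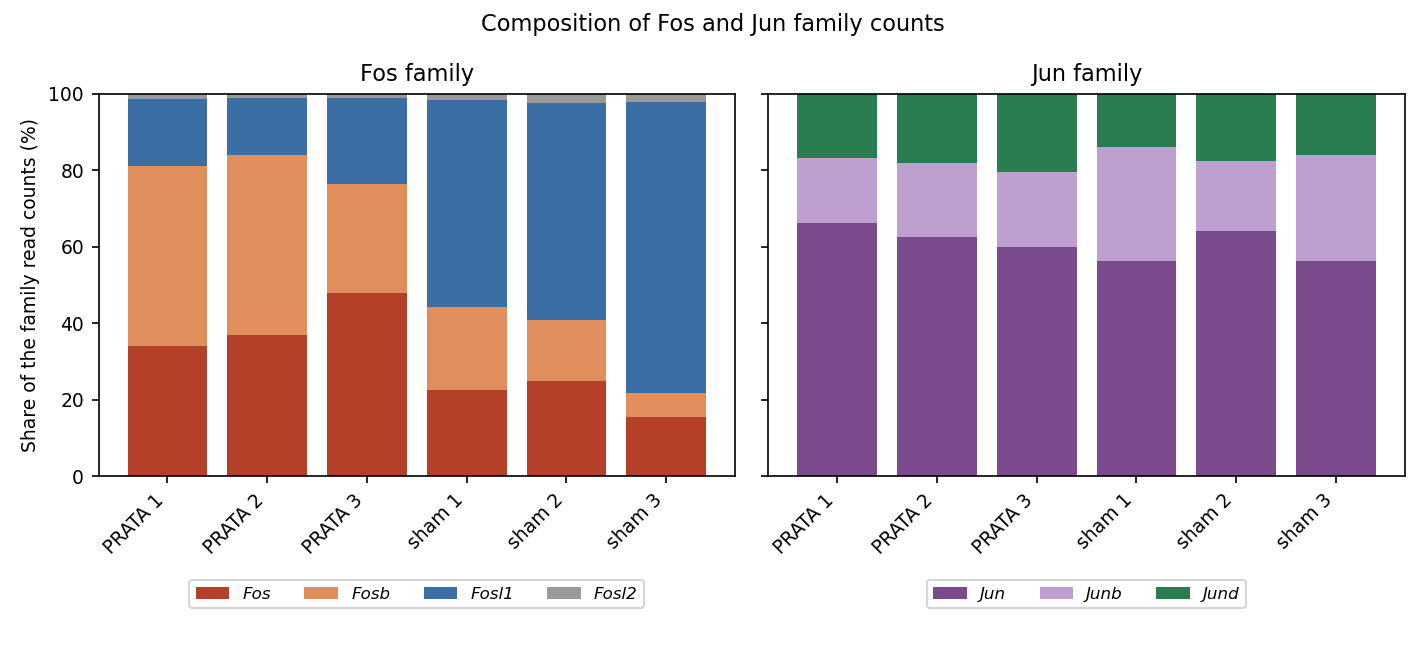
Share of the Fos family counts (left) and of the Jun family counts (right) taken by each gene, in percent, with 1 bar for each sample. Fosl1 fills 15.0 to 22.6% of the left bars after PRATA and 54.2 to 76.0% after sham operation, while the right bars differ little between the groups.

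The cells sequenced were a mixture, and in such samples fewer cells of a type and less RNA per cell cannot be told apart. Defining markers of sensory neurons were detected in every sample, and 25 of 26 of them had a positive log2 fold change, with a median of 0.50. Of these, 9 were higher and 1, the neurotrophin receptor gene Ntrk2, was lower at an unadjusted p under 0.05 (edgeR). That was 34.6% against 8.19% and 3.85% against 10.1% of all genes tested. The summed level of the neuron markers was 16366.5 to 24418 CPM after PRATA and 11778 to 17609 CPM after sham operation. All 10 satellite glial cell markers had a negative log2 fold change, with a median of -0.53 and sums of 3183 to 6015 CPM and 4189.8 to 8321 CPM. At that p 1 of them was lower, or 10% against 10.1% of all genes tested. Of 13 fibroblast markers, 11 had a negative value, with a median of -0.52 and sums of 1595 to 3997 CPM and 2906 to 4181 CPM. At that p 2 of them were lower, or 15.4% against 10.1%. The marker lists were written with earlier results of these data known. The medians were 0.49 for 12 Schwann cell markers, 0.46 for 13 macrophage markers, 0.37 for 9 endothelial markers and 0.17 for 9 smooth muscle and pericyte markers. Their sums overlapped between the groups, at 1337 to 2470.7 CPM and 1414 to 2085 CPM, 76.9 to 228 CPM and 70.5 to 158 CPM, 75.9 to 151 CPM and 30.1 to 177 CPM, and 667 to 789 CPM and 506 to 1010.3 CPM. No tested marker was at 0 in any sample.

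Sensory neuron markers and Fos, Fosb, Jun, Jund and Atf3 were mostly higher after PRATA, and fibroblast markers and Fosl1 mostly lower. Marker levels and gene levels did not always shift together. In all 6 samples the median of the neuron markers was 0.50 and the log2 fold change of Fos 1.56. Within the 4 samples of the larger 7SL set these values were 0.31 and 2.29. The part of the marker levels in the result was not tested beyond rescaling. With each sample scaled to the mean log2 level of its sensory neuron markers, the difference for Fosl1 was -1.49, and the groups still did not overlap. On that scale Fos differed by 1.21, Fosb by 1.88, Atf3 by 0.88, Jund by 0.52 and Jun by 0.39, with overlapping groups. Scaled to fibroblast markers instead, the difference was 2.27 for Fos, 2.94 for Fosb, 1.58 for Jund and 1.95 for Atf3 without overlap. With overlap it was 1.46 for Jun and -0.43 for Fosl1. Fosl1 thus kept its direction under both scalings, but whether its groups separated depended on the scaling.

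The remaining genes of the pathway are given by role, from lists of related genes, with counts at an unadjusted p under 0.05 in the edgeR fit. Since 0 genes passed the adjusted p, none of them is called changed. The lists were written with earlier results of these data known, so the shares and medians of a list are descriptions. Among other bZIP proteins that can pair with AP-1 subunits, 1 of 9 tested was higher and 1 lower, with a median log2 fold change of 0.23. That was 11.1% each, against 8.19% and 10.1% of all genes tested. Maf, a large Maf factor of touch-sensitive neurons, was at 11.2, 18.5 and 10.7 CPM after PRATA and 9.53, 7.65 and 7.08 CPM after sham operation (0.73 ± 0.28, SE). Atf7 had a log2 fold change of -0.50 ± 0.20 (SE), and Jdp2, a repressor that pairs with Jun proteins, one of 0.37 ± 0.21 (SE).

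Of 18 CREB, ATF and C/EBP genes tested, 0 were higher and 1 was lower at that p, with a median of -0.34. The shares were 0% and 5.56%, against 8.19% and 10.1% of all genes tested. DESeq2 gave the same 1 gene at an adjusted p under 0.05, against 234 higher and 510 lower genes among all 14919 tested. The gene was Atf1, a close relative of CREB that binds the TGACGTCA element. It was at 17.6, 18.9 and 19.5 CPM after PRATA and 39.6, 30.0 and 34.9 CPM after sham operation. Its replicates lay close together and the groups stood well apart, with a log2 fold change of -0.90 ± 0.17 (SE, edgeR adjusted p = 0.156, DESeq2 adjusted p = 0.00403). Creb3 had 0.36 ± 0.16 (SE) and Creb5 1.16 ± 0.52 (SE), the latter with overlapping groups.

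MAP kinases phosphorylate Jun, the ternary complex factors and FRA-1. Of 33 genes of these cascades, 6 were higher and 0 lower at that p, or 18.2% against 8.19% and 0% against 10.1% of all genes tested, with a median of 0.18. Map3k5, the stress-activated kinase ASK1, was at 34.3, 30.7 and 39.0 CPM after PRATA and 20.9, 24.0 and 19.6 CPM after sham operation (0.69 ± 0.18, SE). Mapk11, which encodes p38 beta, had a log2 fold change of 0.84 ± 0.22 (SE). Mapk8ip1, a JNK scaffold abundant in neurons, was at 248, 223 and 229 CPM after PRATA and 134, 187 and 151 CPM after sham operation (0.57 ± 0.19, SE). The groups did not overlap for these 3 genes, and the sensory neuron markers moved the same way, with a median of 0.50.

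Of 10 tested genes for factors that act on the Fos promoter, 0 were higher and 1 lower at that p, with a median of -0.19. The shares were 0% and 10%, against 8.19% and 10.1% of all genes tested. Elk4, a ternary complex factor that partners serum response factor, was at 38.6, 51.4 and 56.3 CPM after PRATA and 112, 61.0 and 105 CPM after sham operation (-0.93 ± 0.26, SE). Creb1 had -0.55 ± 0.28 (SE) and Mef2d -0.39 ± 0.22 (SE). Of 14 cofactor and ubiquitin ligase genes of Jun and Fos, 1 was higher and 1 lower, with a median of -0.06. The shares were 7.14% each, against 8.19% and 10.1% of all genes tested. Cop1, a ligase component that targets Jun for degradation, had -0.44 ± 0.17 (SE), Men1, whose product menin binds JunD, 0.41 ± 0.17 (SE), and Fbxw7, a ligase component for phosphorylated Jun, 0.40 ± 0.18 (SE).

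Textbook target genes of AP-1 had lower levels after PRATA more often than higher ones. Of 27 tested, 0 were higher and 11 lower at an unadjusted p under 0.05 (edgeR), 40.7% against 10.1% of all genes tested, and the median log2 fold change was -0.60 against 0.02. DESeq2 called 6 of them at an adjusted p under 0.05, against 234 higher and 510 lower genes among all 14919 tested. Because this list was written with earlier results of these data known, its shares are a description and no support. Mmp3, which encodes the matrix metalloproteinase stromelysin, had 1, 7 and 4 counts after PRATA and 47, 23 and 66 counts after sham operation. That gave 0.13, 0.56 and 0.32 CPM against 3.25, 3.59 and 6.23 CPM, with the PRATA counts close to the 3-count floor. Hmox1, heme oxygenase, was at 199, 268 and 606 CPM after PRATA and 1379.8, 1809 and 2729 CPM after sham operation. The lowest sham value was well above the highest PRATA value, and the log2 fold change was -2.46 ± 0.47 (SE, edgeR adjusted p = 0.156). Several of these genes are also expressed by fibroblasts and glia. The medians were -0.52 for fibroblast and -0.53 for satellite glial cell markers but 0.49 for Schwann cell markers, and the part of those cells in the result was not tested. Within the 4 samples of the larger 7SL set the median of the list was -0.31.

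Genes known to be induced together with Atf3 in injured sensory neurons were, in contrast, mostly at higher levels after PRATA. Of 23 tested, 11 were higher and 1 lower at that p, 47.8% against 8.19% and 4.35% against 10.1%, with a median of 0.77. DESeq2 called 6 of them at an adjusted p under 0.05, against 234 higher and 510 lower genes among all 14919 tested. This list, too, was written with earlier results of these data known, so its shares are a description and no support. Sox11, a transcription factor of axon regrowth, was at 28.0, 33.9 and 21.6 CPM after PRATA and 9.81, 10.8 and 9.07 CPM after sham operation. The groups lay far apart, with a log2 fold change of 1.50 ± 0.22 (SE, edgeR adjusted p = 0.156). Bdnf, a neurotrophin, was at 50.9, 38.3 and 47.3 CPM and 24.7, 24.7 and 22.5 CPM (0.93 ± 0.18, SE). Csf1, the cytokine by which injured sensory neurons act on microglia, was lower, at 125, 148 and 102 CPM against 239, 211 and 202 CPM (-0.80 ± 0.19, SE). The median of the list fell to 0.43 without PRATA sample 2, and the sensory neuron markers, which share Tubb3 with it, had a median of 0.50.

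Immediate early genes outside AP-1 did not move as 1 group. Of 23 tested, 2 were higher and 2 lower at that p, 8.70% each against 8.19% and 10.1% of all genes tested, and the median was 0.22. Ccn2, a matricellular growth factor gene, was at 93.1, 81.6 and 228 CPM after PRATA and 531, 326 and 632 CPM after sham operation (-1.89 ± 0.44, SE). Nr4a1, an activity-induced nuclear receptor, was at 73.6, 151 and 44.1 CPM after PRATA and 57.8, 22.8 and 23.9 CPM after sham operation, so that PRATA sample 3 lay below sham sample 1 as for Fosb and Atf3 (1.36 ± 0.51, SE). Myc had -0.80 ± 0.32 (SE), with overlapping groups.

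**Figure D4:**
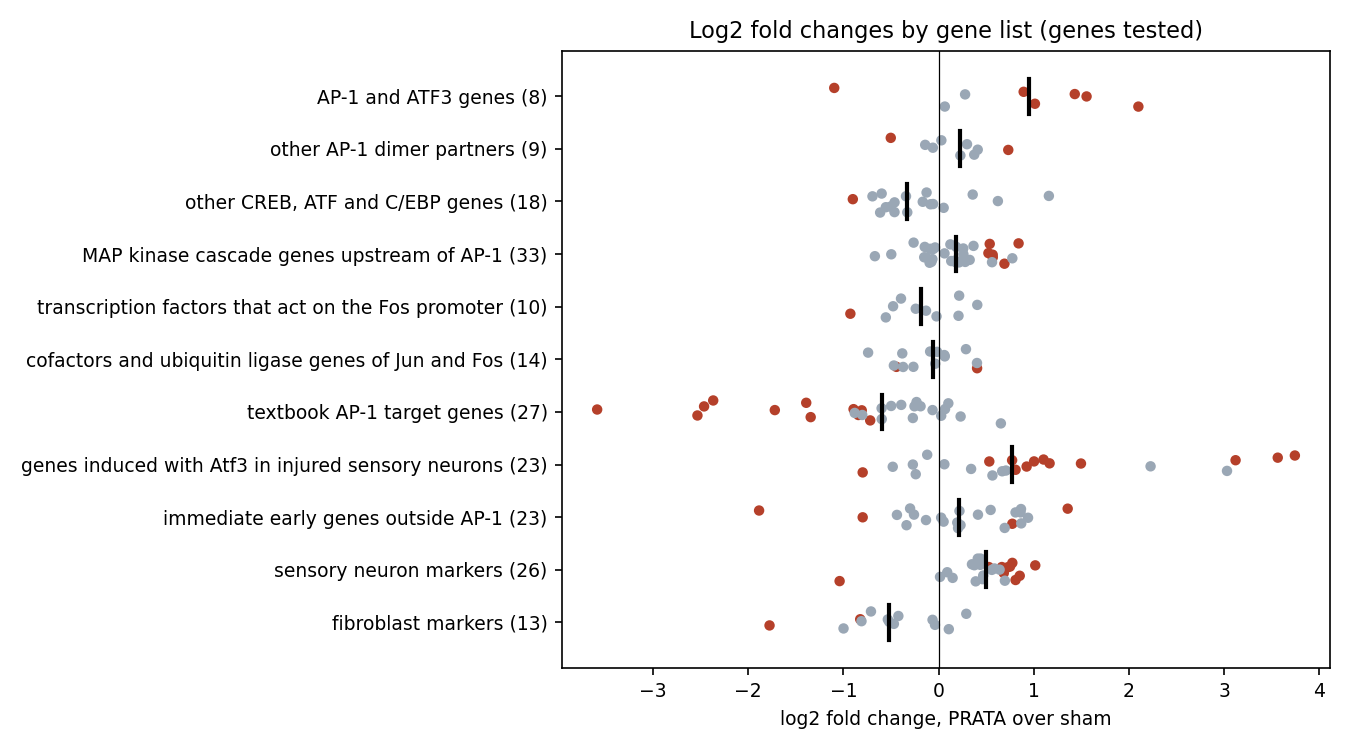
Log2 fold change (PRATA over sham) of each tested gene, by list, with the number tested in brackets; points in red have an unadjusted edgeR p under 0.05, and black bars are list medians. The AP-1 target genes spread to the left, with a median of -0.60, and the genes induced with Atf3 to the right, with a median of 0.77. The lists were written with earlier results of these data known.

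**Figure D5:**
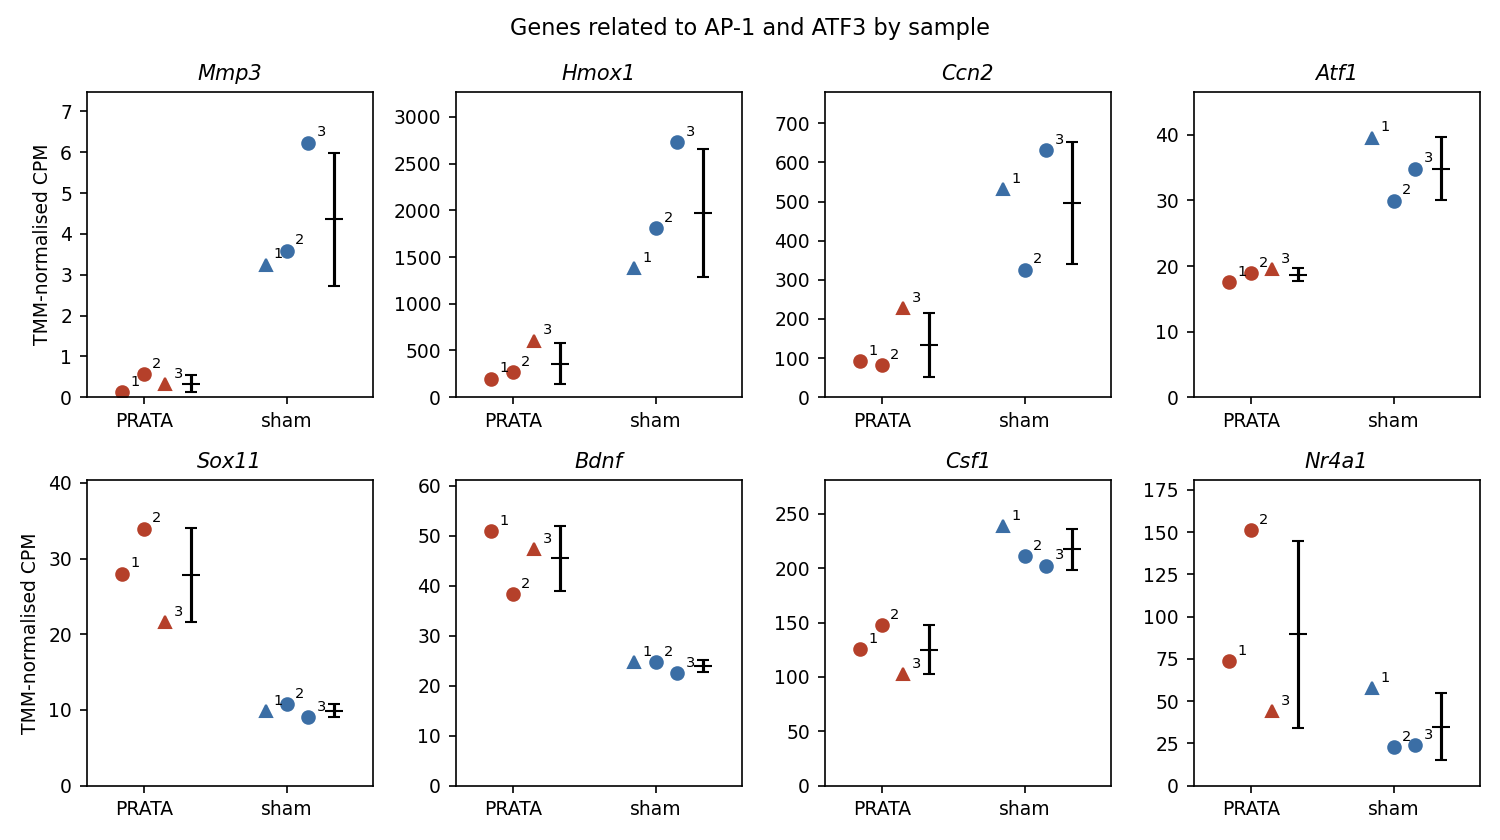
TMM-normalised CPM in each sample for Atf1 and for genes of the target, injured-neuron and immediate early lists, on linear axes from 0. Colours, numbers, triangles and bars are as in the plot of the 8 genes by sample. The groups separate for every gene shown except Nr4a1, for which PRATA sample 3 lies at 44.1 CPM below sham sample 1 at 57.8 CPM.

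For Fos, Jund and Fosl1 the 3 genes with the most similar pattern were found by Pearson's r of log2 CPM over the 6 samples, among named genes with a mean of at least 1 CPM. These values, the highest among all such genes over only 6 points, are descriptions with no test. For Fos they were Auts2 (r = 0.998), Rasgef1b (r = 0.994) and Unc80 (r = 0.990), whose own log2 fold changes were 0.47, 0.64 and 0.39. For Jund they were Cpeb2 (r = 0.996), Cttnbp2 (r = 0.989) and Adora2a (r = 0.988), with log2 fold changes of 0.32, 0.70 and 0.47. For Fosl1 they were Zbtb6 (r = 0.997), Gosr2 (r = 0.997) and Ptp4a1 (r = 0.996), with log2 fold changes of -0.64, -0.22 and -0.38. The amplitude of each of these 9 genes was thus smaller than that of the gene it followed.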

How the data were processed

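RNA from 3 PRATA and 3 sham samples was analysed. The authors deposited raw counts of reads per gene without normalization. According to the paper they mapped the reads with HISAT2, assembled them with StringTie and compared FPKM values from Cuffdiff, whereas the submitters' processing notes name STAR 2.7.3a, RSEM and DESeq2. Which tool made the counts, the strand setting, the genome build and the handling of reads shared between near-identical genes were not given in the sources used here. The libraries came from a stranded total RNA kit with ribosomal RNA depletion and no molecular identifiers, so Wilson intervals (95%) and the 3-count floor cover counting error only. Total counts ranged from 5892967 to 15226952 per sample.

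The main test was that of edgeR 4.0.16 in R 4.3.3 (filterByExpr, minimum count 10, minimum total 15; TMM; two-sided quasi-likelihood test; Benjamini-Hochberg adjustment over 14919 genes), with limma 3.58.1 and DESeq2 1.42.0 as alternatives. Plots were drawn with matplotlib 3.10.9. All 6 columns of sample values were used. The scripts were tested on simulated data. Samples were grouped by their labels. The 8 genes and the lists of related genes were chosen with earlier results of these data known. From each related list the 3 genes with the smallest unadjusted p were named, together with the 3 genes most correlated with Fos, Jund and Fosl1. Of the target genes so chosen, 1 is not reported here. Alternatives were other normalisations, filters and tools, each sample left out, a replicate block, a covariate for the 7SL set (Rn7sl1 share above 3% or not), the larger 7SL set alone, and scaling to cell markers. Levels per transcript length and protein sequences were not analysed here.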

Additional observations from a re-analysis of the deposited data

How the results depend on the processing

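Fos, Fosb, Jun, Jund and Atf3 kept a positive and Fosl1 a negative log2 fold change under every alternative run, at 1.21 to 2.29 for Fos, 1.68 to 3.58 for Fosb, 0.39 to 1.46 for Jun, 0.52 to 1.58 for Jund, 0.88 to 2.12 for Atf3 and -1.49 to -0.43 for Fosl1. Fosl2 changed sign without PRATA replicate 1 (-0.16), PRATA replicate 2 (-0.08) or sham replicate 2 (-0.08) and on the neuron marker scale (-0.46), with -0.16 to 0.38 over the samples left out. Junb did so without PRATA replicate 2 (-0.045) or sham replicate 2 (-0.034) and on the neuron marker scale (-0.10), with -0.045 to 0.77 over the samples left out. Leaving out a sample also turned the medians of the dimer partners (-0.015 to 0.47), the other immediate early genes (-0.016 to 0.59), the macrophage markers (-0.074 to 0.69), the endothelial markers (-0.022 to 1.16) and the smooth muscle and pericyte markers (-0.22 to 0.56).

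At an adjusted p under 0.05, 0 higher and 0 lower genes became 234 and 510 with DESeq2, 447 and 726 with voom and sample quality weights, 9 and 4 in the 4 samples of the larger 7SL set, and up to 162 and 559 when 1 sample was left out (0 to 162 and 0 to 559). Of the 8 genes, DESeq2 called Fos, Fosl1, Jund and Atf3 there (lowest adjusted p 0.00304, for Fos), and voom called these and Fosb. The larger 7SL set called Fos and Fosb, and edgeR without sham replicate 2 called Fosl1 (adjusted p = 0.0340). Since the 8 genes were chosen on this contrast, nothing is read from these calls. At an unadjusted p under 0.05, 1222 higher and 1512 lower genes became 2324 and 2282 with voom and 621 and 907 with the replicate block, and leaving out a sample gave 548 to 2073 and 858 to 2181. Of the 8 genes, the 5 higher ones numbered 3 to 5 when a sample was left out (3 without PRATA replicate 2 or without sham replicate 2), and the 1 lower gene became 0 in the larger 7SL set. The causes were not tested. Samples with the same replicate number were compared across genes. Deviations of same-numbered samples correlated at -0.35, -0.05 and -0.35, and 0 of the 6 samples correlated best with its own number. With 3 samples in each group these values cannot show whether samples were paired. With the replicate block the log2 fold change was 1.68 ± 0.36 (SE) for Fos, 2.35 ± 0.42 for Fosb, 1.35 ± 0.29 for Atf3, 0.98 ± 0.30 for Jund and -1.03 ± 0.34 for Fosl1. Against the main fit the SE was smaller for Fos, Fosb and Atf3 and larger for Jund and Fosl1. Depth limited genes of few counts, such as Mmp3 with 1 to 7 counts in the PRATA samples, and sham replicate 2 was the shallowest sample.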

Other observations

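Among the genes induced with Atf3 in injured sensory neurons, some were far higher in PRATA sample 2 than in the other PRATA samples. These genes were chosen after their values were seen. Csrp3, which encodes a LIM-domain protein of injured neurons, was at 29.6 CPM in PRATA sample 2, at 1.81 and 1.03 CPM in the other PRATA samples and at 0.62 to 0.97 CPM in the sham samples. The neuropeptide gene Vip was at 20.0 CPM in PRATA sample 2, 2.45 CPM in PRATA sample 1 and 1.11 CPM in PRATA sample 3. Gal, another neuropeptide gene, was at 70.8 CPM in PRATA sample 2, 13.2 CPM in PRATA sample 1 and 2.93 CPM in PRATA sample 3, and at 3.87, 9.99 and 5.20 CPM in the sham samples. Npy was at 33.9 CPM in PRATA sample 2 and at 0.32 and 3.10 CPM in the other PRATA samples. PRATA sample 2 also held the highest level of Atf3, at 327 CPM, but Atf3 was nearly as high in PRATA sample 1, at 278 CPM, where these genes were not.

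Of 12 Schwann cell markers, 8 had a positive and 4 a negative log2 fold change. At an unadjusted p under 0.05 (edgeR) 3 were higher and 1 lower, or 25% against 8.19% and 8.33% against 10.1% of all genes tested. The groups did not overlap for 4 in the higher and 1 in the lower direction, against 11.6% and 11.2% of all genes tested. The lower gene and a higher one are given as examples, chosen after their values were seen. Sox10, the glial lineage factor, was at 59.9, 88.4 and 42.0 CPM after PRATA and 214, 109 and 267 CPM after sham operation. Prx, a gene of myelinating Schwann cells, was at 43.4, 88.7 and 35.6 CPM after PRATA and 25.3, 27.5 and 11.4 CPM after sham operation. Over all genes tested, 0 passed the adjusted p in the edgeR fit, against 1222 higher and 1512 lower at an unadjusted p under 0.05.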
